A study of Mus musculus with 8 samples.

Results

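Chromatin regulators are the enzymes and complexes that write, remove and read chemical marks on histones and DNA, or move nucleosomes. A list of 39 such genes was followed in germinal centre (GC) B cells labelled as having or lacking the transcription factor gene Irf8, among 23469 genes in the deposited tables. The list was drawn up by gene name. Kmt2a and Ankrd11 entered it because an earlier analysis of these data gave them higher scaled values in the group labelled Irf8 cKO. The rest entered as known chromatin regulators. For Kmt2a and Ankrd11 the comparison of genotypes is therefore a description, with no test. All 39 symbols were found in both tables.

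GC B cells are antigen-activated B cells that divide fast and mutate their antibody genes in lymph nodes and spleen. They were sorted as B220+ cells with high FAS and high GL7, from C57BL/6 mice 13 days after immunization with the hapten-carrier NP-KLH. The Irf8 cKO group was Irf8flox/flox and the Ctrl group Irf8+/+, and both carried 1 copy of a Cre allele. That Cre is active across the B lineage and not only in GC B cells. Each of 2 experiments gave 1 library per genotype, so n = 2 per group. The labels do not say whether a library holds 1 animal or a pool, nor give the age of the mice. P-values computed here rest on the spread between these libraries, which may be technical and is largely estimated from other genes. The authors' own p-values compare 1 library with 1, so they hold no spread between replicate libraries. The other 4 samples of the series, from B cells cultured with lipopolysaccharide, were not analysed here.

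Most of these genes act in opposing pairs of functions. Methylation of histone H3 on lysine 4 by KMT2 and SETD1 enzymes marks active genes, and methylation of lysine 27 by polycomb repressive complex 2 (PRC2) silences them. Demethylases of the KDM family take methyl groups off again, acetyltransferases and deacetylases set histone acetylation, and the TET enzymes counter the DNA methyltransferases. In GC B cells the PRC2 enzyme EZH2 is known to hold back plasma cell genes, and Ezh2, Crebbp, Ep300 and Arid1a are known targets of mutation in human lymphomas of GC origin.

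Expression was deposited as RPKM, reads per length of transcript and per mapped reads of the library. All genes together stood lower in the libraries labelled Irf8 cKO, by a median log2 ratio of -0.35 over the 6446 genes tested. Values were therefore divided by a scale factor per library, 1.07 and 0.685 for the libraries labelled Irf8 cKO 1 and 2 and 1.23 and 1.14 for Ctrl 1 and 2, and are called scaled RPKM. Library totals, estimated from the steps between low values, ran from 63000000 to 76000000 reads. Annotated exons outside the ribosomal RNA precursor Rn45s held an estimated 10.6% and 7.07% of the reads in the libraries labelled Irf8 cKO 1 and 2, against 12.7% and 11.3% in Ctrl. Rn45s itself was at 8589 and 16716 RPKM in the libraries labelled Irf8 cKO, against 9085 and 5887 RPKM in Ctrl. Of 6 T cell marker genes matched, 5 stayed under 0.1 RPKM in all 4 libraries, among them Cd3e at 0.0878 RPKM or less. The 6 summed to 5.08 and 2.71 RPKM in the libraries labelled Irf8 cKO, against 3.66 and 3.31 RPKM in Ctrl. Most of each sum thus lay in a single gene, and T cell RNA is not shown to be absent. Bcl6, the GC master regulator, was at 30.5 and 23.4 RPKM in the libraries labelled Irf8 cKO, against 38.7 and 37.7 RPKM in Ctrl, and 9 GC marker genes summed to 155 and 100.3 RPKM, against 195 and 176 RPKM in Ctrl. Of 9 myeloid marker genes, C1qa, C1qb and Csf1r stayed under 0.1 RPKM in all 4 libraries, and the list summed to 24.4 and 9.27 RPKM in the libraries labelled Irf8 cKO, against 75.3 and 16.9 RPKM in Ctrl. The part of ribosomal or myeloid reads in the results below was not tested. The Irf8 transcript itself was higher on scaled values in the libraries labelled Irf8 cKO, at 19.3 and 17.0 scaled RPKM, against 11.8 and 13.0 in Ctrl. As deposited the groups overlapped, at 20.6 and 11.6 RPKM in the libraries labelled Irf8 cKO, against 14.5 and 14.9 RPKM in Ctrl. One value per gene over all exons does not show the deletion, so the genotype labels are not checked by it and the groups are given as labelled. In sorted bulk cells, fewer cells of a type and less RNA per cell cannot be told apart.

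The list spans a wide range of levels, from 0.493 to 17.5 scaled RPKM as means of the 4 libraries, with a median of 4.5. Of the 39 genes, 26 stood above 2.36 scaled RPKM, the median over all genes tested. The highest were Kmt2a (an H3 lysine 4 methyltransferase), Smarca4 (the motor of the BAF remodelling complex) and Dnmt1 (the maintenance DNA methyltransferase), at 17.5, 17.2 and 15.7 scaled RPKM. Hdac1, a class I deacetylase, and Ezh2 followed at 13.1 and 12.6. These neighbours do not differ beyond their spread, since Kmt2a alone ranged from 11.3 to 26.7 over the 4 libraries. Levels were lowest for Setd1b, Kdm6b, Dnmt3a and Tet2, at 0.493, 0.593, 0.627 and 0.830 scaled RPKM. Those 4 genes missed the filter for testing, a deposited RPKM of at least 1 in 2 libraries. The other 35 reached that level in at least 3 libraries, and 33 of them in all 4. An estimated 172 reads or more stood behind each value of each of the 39 genes, which bears on counting error only, since the RNA was amplified before sequencing.

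**Figure D1:**
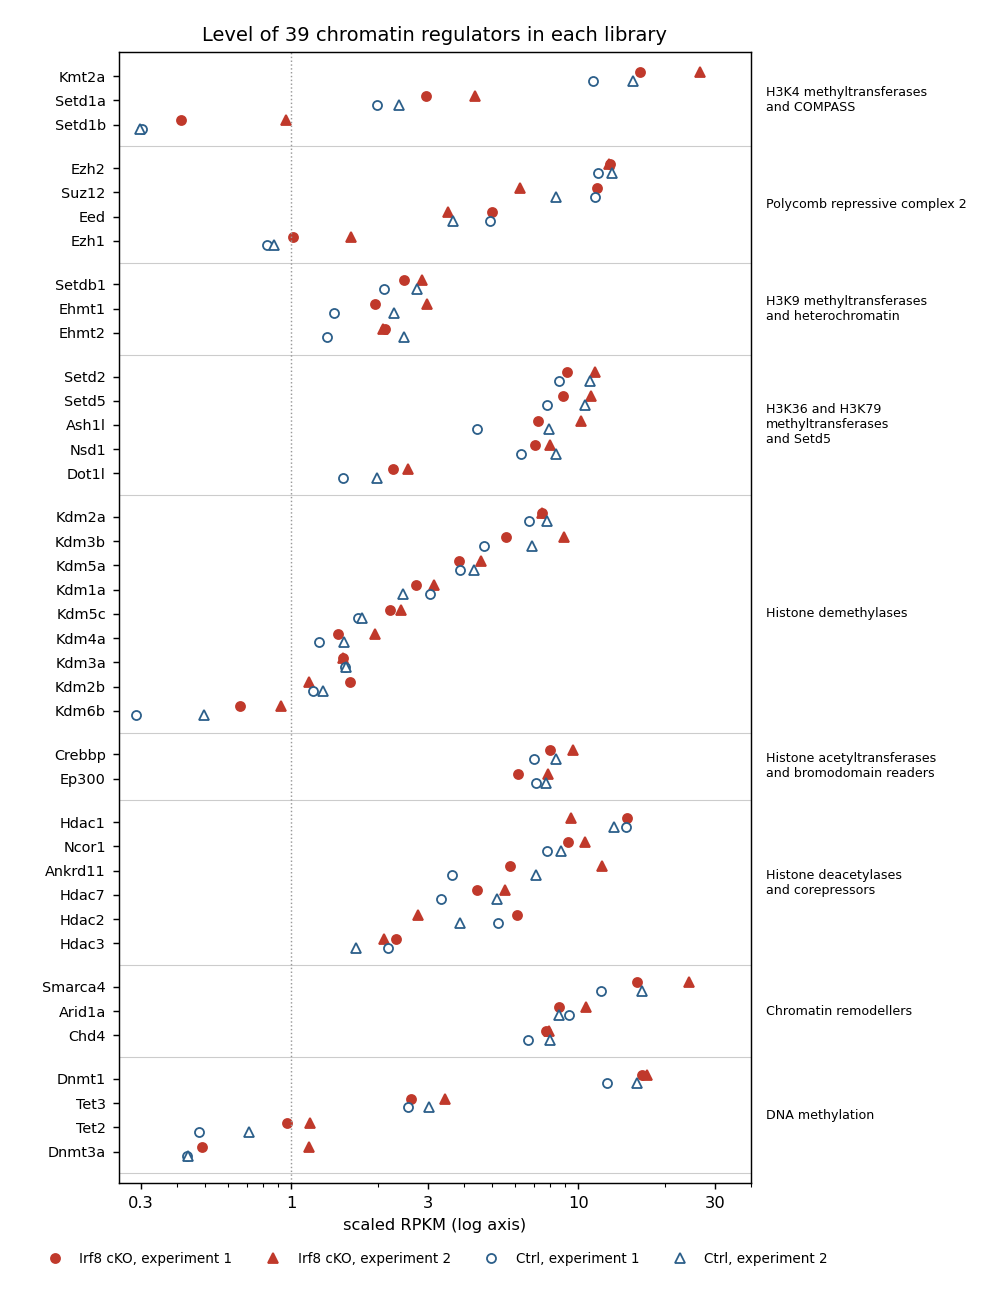
Scaled RPKM (log axis) of the 39 genes in each library, ordered by level within groups of like function; filled red symbols are the libraries labelled Irf8 cKO, open blue symbols are Ctrl, and circles and triangles mark experiments 1 and 2. The dotted line is at 1. Kmt2a and Setd1a show both red symbols right of both blue ones, while those of Ezh2, Setd2 and Kdm5a lie among each other.

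The comparison of Irf8 cKO with Ctrl is meant to address how loss of IRF8 alters the transcripts of GC B cells. That loss is taken from the labels. No chromatin regulator passed the test in either direction. Of the 33 genes tested that were not chosen on this contrast, 0 were called higher and 0 lower in the libraries labelled Irf8 cKO (limma with the experiment as a block, Benjamini-Hochberg threshold 0.05). Among all 6446 genes 0% were called higher and 0% lower, so this count says nothing particular about the list. At an unadjusted p under 0.05, 3 of the 33 were higher, namely Setd1a, Ash1l and Smarca4, against 4.33% of all genes, and 0 were lower, against 5.9% of all genes.

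Within that limit the ratios leaned to one side, in a list drawn up with earlier results of these data known. The log2 ratio of Irf8 cKO over Ctrl was above 0 for 27 of the 33 genes, against 43.9% of all genes, and its median over these 33 was 0.10, against -0.04 over all genes. It was above 0 in both experiments for 18 of the 33, against 25% of all genes, and below 0 in both for 1, Kdm3a, against 33.2%. In experiment 1 the ratio was above 0 for 28 of the 33, against 44.5% of all genes, and in experiment 2 for 22, against 47.3%. The medians over the 33 genes were 0.16 and 0.083 in experiments 1 and 2, against -0.03 and -0.02 over all genes. Both libraries labelled Irf8 cKO lay above both Ctrl libraries for 6 of the 33, against 13% of all genes, and below them for 1, again Kdm3a, against 18.5%. The 6 were Setd1a, Ezh1, Dot1l, Kdm5c, Ncor1 and Dnmt1. For 30 of the 35 genes, Kmt2a and Ankrd11 among those counted, the wider of the 2 within-group gaps exceeded the difference between group means. That count ignores the pairing by experiment, and its share over all genes was not computed. The lean varied with the libraries used. Without the block, leaving out Ctrl 1 brought the median of all 35 genes, Kmt2a and Ankrd11 included, to 0.064 above that of all genes and leaving out the library labelled Irf8 cKO 2 to 0.087, whereas leaving out Ctrl 2 gave 0.30 and leaving out the library labelled Irf8 cKO 1 gave 0.28. As a description over the 33 genes, which share the same 4 libraries, the ratios of the experiments correlated at 0.317 (Pearson's r), against 0.213 over all genes.

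**Figure D2:**
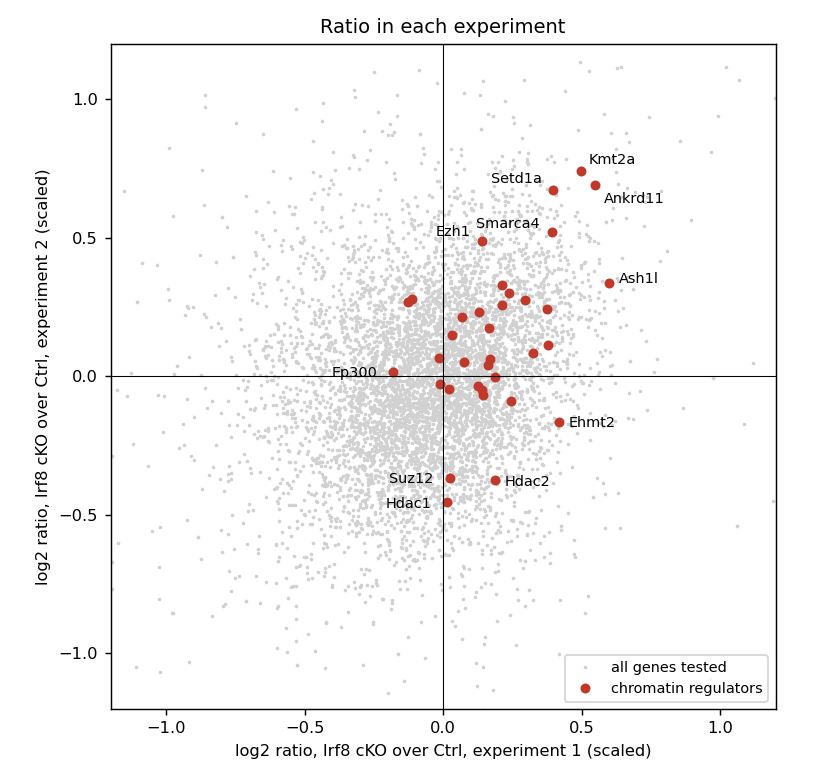
Log2 ratio of Irf8 cKO over Ctrl in experiment 1 (horizontal) and experiment 2 (vertical), on scaled RPKM plus 1. Red points are the 35 chromatin regulators tested, grey points all genes tested, of which 45 lie beyond the axes. Kmt2a, Ankrd11, Setd1a, Smarca4 and Ash1l sit in the upper right, and Hdac1, Hdac2 and Suz12 are lower in experiment 2 alone.

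Kmt2a encodes MLL1, the catalytic subunit of a COMPASS-type complex that methylates H3 lysine 4. The gene lies on chromosome 9 (44803355 to 44881274, minus strand, mm10). Kmt2a was at 16.4 and 26.7 scaled RPKM in the libraries labelled Irf8 cKO, against 11.3 and 15.6 in Ctrl (17.5 and 18.3 RPKM in libraries labelled Irf8 cKO against 13.8 and 17.8 in Ctrl as deposited). Both libraries labelled Irf8 cKO lay above both Ctrl libraries on the scaled values, while Ctrl 2 exceeded the library labelled Irf8 cKO 1 as deposited. The log2 ratio was 0.62 ± 0.17 (SE), with 0.50 and 0.74 in experiments 1 and 2. As deposited it was 0.18, which is 0.53 above the median of all genes.

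Ankrd11 encodes an ankyrin-repeat cofactor that binds nuclear receptor coactivators and histone deacetylases. It was at 5.76 and 12.1 scaled RPKM in the libraries labelled Irf8 cKO, against 3.63 and 7.12 in Ctrl. The groups overlap and experiment 2 ran higher in both genotypes, but in each experiment the library labelled Irf8 cKO was the higher. The log2 ratio was 0.62 ± 0.15 (SE), with 0.55 and 0.69 in the experiments, and 0.21 as deposited. Leaving out a library, without the block, moved it to 0.14 without the library labelled Irf8 cKO 2 and to 1.10 without that labelled Irf8 cKO 1. The same fits gave 0.28 and 0.96 for Kmt2a. Ankrd11 lies on chromosome 8 (122883822 to 123042284, minus strand, mm10), 2.13 Mb beyond the end of Irf8 (120736376 to 120756692).

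The promoters of the list were read from RefSeq on GRCm38.p6, from 250 bases before to 50 after each annotated start. Entries were found for 30 of the 39 genes, with 46 starts. CpG dinucleotides, the sites of DNA methylation and the bases that the CXXC domain of MLL1 binds, numbered a median of 30.5 per 300 bases in these promoters, against 22.0 in the promoters of the other genes tested and 7 in all promoters of the table. The composite site of ETS factors and IRF8, searched on both strands as GGAA and GAAA with any 2 bases between them, was in 0 of the 46, against 2.46% of the promoters of the other genes tested and 2.72% of all promoters. A repeat of GAAA with the same gap, the core bound by IRF proteins at interferon-stimulated genes, shares its second part with that site and was in 0 of the 46, against 3.09% and 3.44%. These letters were thus not in these windows, which says nothing of sites elsewhere. The promoters of the 2 genes chosen on the contrast and of the PRC2 genes Ezh2 and Suz12 are shown for comparison, with every CpG in capitals. On scaled values the groups overlapped for Ankrd11, Ezh2 and Suz12 and not for Kmt2a. These promoters hold 36 CpG in Kmt2a (chr9:44881240-44881539, minus strand), 36 in Ankrd11 (chr8:123042235-123042534, minus strand), 31 in Ezh2 (chr6:47594981-47595280, minus strand) and 41 in Suz12 (chr11:79992856-79993155, plus strand). All 4 are CpG-dense.
Kmt2a: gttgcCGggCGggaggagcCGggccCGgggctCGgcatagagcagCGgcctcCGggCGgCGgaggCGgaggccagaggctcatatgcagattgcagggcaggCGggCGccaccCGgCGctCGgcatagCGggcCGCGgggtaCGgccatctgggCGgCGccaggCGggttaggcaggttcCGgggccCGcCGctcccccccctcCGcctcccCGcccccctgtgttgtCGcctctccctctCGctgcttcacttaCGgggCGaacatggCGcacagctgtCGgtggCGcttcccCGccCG
Ankrd11: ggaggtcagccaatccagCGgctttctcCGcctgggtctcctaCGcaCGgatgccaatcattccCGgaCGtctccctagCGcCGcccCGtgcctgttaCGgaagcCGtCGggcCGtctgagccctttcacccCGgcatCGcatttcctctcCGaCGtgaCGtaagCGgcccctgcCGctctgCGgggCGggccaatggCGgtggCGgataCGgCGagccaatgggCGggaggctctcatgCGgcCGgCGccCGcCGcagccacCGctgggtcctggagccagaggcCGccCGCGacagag
Ezh2: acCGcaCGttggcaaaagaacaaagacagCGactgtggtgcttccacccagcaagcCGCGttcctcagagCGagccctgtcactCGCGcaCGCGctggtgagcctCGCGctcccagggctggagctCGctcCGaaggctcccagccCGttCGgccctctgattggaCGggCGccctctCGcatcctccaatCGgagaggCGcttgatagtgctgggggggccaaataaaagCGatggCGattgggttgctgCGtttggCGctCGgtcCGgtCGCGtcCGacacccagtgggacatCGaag
Suz12: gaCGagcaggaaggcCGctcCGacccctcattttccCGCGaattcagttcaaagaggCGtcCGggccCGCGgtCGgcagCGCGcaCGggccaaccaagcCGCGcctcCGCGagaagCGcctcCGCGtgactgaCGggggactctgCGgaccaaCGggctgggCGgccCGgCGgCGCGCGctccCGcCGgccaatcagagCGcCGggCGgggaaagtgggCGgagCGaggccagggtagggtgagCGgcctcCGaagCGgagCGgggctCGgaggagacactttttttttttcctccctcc

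The other H3 lysine 4 enzymes of the list are Setd1a and Setd1b, the catalytic subunits of the SET1 complexes. Setd1a was at 2.94 and 4.38 scaled RPKM in the libraries labelled Irf8 cKO, against 1.99 and 2.38 in Ctrl, and the groups did not overlap, nor did they as deposited (3.14 and 3.0 RPKM in libraries labelled Irf8 cKO against 2.44 and 2.72 in Ctrl). Its log2 ratio was 0.53 ± 0.15 (SE), with 0.40 and 0.67 in the experiments, and it did not pass (limma adjusted p = 0.451). Setd1b, under the filter, was at 0.413 and 0.960 scaled RPKM in libraries labelled Irf8 cKO against 0.303 and 0.297 in Ctrl. In a fit with no filter on low values its log2 ratio was 0.36 ± 0.18 (SE; limma adjusted p = 0.686).

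None of the 4 PRC2 genes passed the test, and 2 had ratios above 0. Ezh2, its main catalytic subunit in dividing cells, was at 12.9 and 12.8 scaled RPKM in the libraries labelled Irf8 cKO, against 11.7 and 13.1 in Ctrl. The log2 ratio was 0.05 ± 0.16 (SE; limma adjusted p = 0.935), with 0.13 and -0.03 in the experiments. Suz12 and Eed, the scaffold subunits, overlapped between groups as well. Suz12 ran at 11.7 and 6.27 scaled RPKM in libraries labelled Irf8 cKO against 11.4 and 8.37 in Ctrl, and Eed at 4.99 and 3.53 in libraries labelled Irf8 cKO against 4.91 and 3.67 in Ctrl. Both were lower in experiment 2 than in experiment 1 in either genotype. Ezh1, the paralog of Ezh2 best known from resting cells, was at 1.01 and 1.62 scaled RPKM in libraries labelled Irf8 cKO against 0.825 and 0.868 in Ctrl. The groups did not overlap, on scaled values or as deposited (1.08 and 1.11 RPKM in libraries labelled Irf8 cKO against 1.01 and 0.992 in Ctrl). Ezh1 had a log2 ratio of 0.31 ± 0.16 (SE; limma adjusted p = 0.546).

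Among methyltransferases of H3 lysine 9, a mark of silent chromatin, all 3 members had ratios above 0 and none passed. Ehmt1 was at 1.96 and 2.98 scaled RPKM in the libraries labelled Irf8 cKO, against 1.41 and 2.29 in Ctrl, with a log2 ratio of 0.29 ± 0.14 (SE; limma adjusted p = 0.539). Ehmt2 (G9a), its partner enzyme, was at 2.12 and 2.10 in libraries labelled Irf8 cKO against 1.34 and 2.47 in Ctrl, and the experiments went opposite ways, with log2 ratios of 0.42 and -0.16. Setdb1, which silences retroelements, was at 2.48 and 2.85 in libraries labelled Irf8 cKO against 2.10 and 2.75 in Ctrl.

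The enzymes of H3 lysine 36 and 79, which mark transcribed gene bodies, were mostly well expressed. Ash1l, an H3 lysine 36 methyltransferase, was at 7.24 and 10.2 scaled RPKM in the libraries labelled Irf8 cKO, against 4.43 and 7.89 in Ctrl. It was the higher in each experiment, with log2 ratios of 0.60 and 0.34, while the groups overlapped. The fitted ratio was 0.47 ± 0.16 (SE; limma adjusted p = 0.477). Fitted without the block, it was 0.11 without Ctrl 1 and 0.82 without Ctrl 2. Dot1l, the H3 lysine 79 methyltransferase, was at 2.26 and 2.55 in libraries labelled Irf8 cKO against 1.51 and 2.00 in Ctrl with no overlap, a log2 ratio of 0.31 ± 0.14 (SE; limma adjusted p = 0.527). Setd2 and Nsd1, both H3 lysine 36 methyltransferases, and the SET-domain protein Setd5 lay between 6.30 and 11.5 scaled RPKM in every library and overlapped between groups.

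Of the 9 demethylases, 8 were tested and none passed. Kdm3b, an H3 lysine 9 demethylase, was at 5.58 and 8.96 scaled RPKM in the libraries labelled Irf8 cKO, against 4.69 and 6.91 in Ctrl, and Kdm5c, an H3 lysine 4 demethylase, at 2.20 and 2.41 in libraries labelled Irf8 cKO against 1.71 and 1.77 in Ctrl. The groups of Kdm5c did not overlap and those of Kdm3b did. Their log2 ratios were 0.27 ± 0.15 and 0.27 ± 0.14 (SE; limma adjusted p = 0.568 and 0.554). Kdm1a (LSD1), the H3 lysine 36 demethylases Kdm2a and Kdm2b, Kdm4a and the H3 lysine 4 demethylase Kdm5a overlapped between groups, with log2 ratios from 0.03 to 0.18. Kdm3a, the paralog of Kdm3b, was at 1.52 and 1.51 scaled RPKM in libraries labelled Irf8 cKO against 1.54 and 1.55 in Ctrl. Both libraries labelled Irf8 cKO lay below both Ctrl libraries there, by a log2 ratio of -0.02 ± 0.14 (SE; limma adjusted p = 0.974). Kdm6b, which removes the PRC2 mark and lay under the filter, was at 0.663 and 0.924 scaled RPKM in libraries labelled Irf8 cKO against 0.289 and 0.498 in Ctrl, with a log2 ratio of 0.36 ± 0.16 without the filter (SE; limma adjusted p = 0.685).

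The acetyltransferases CREBBP and EP300, close paralogs that acetylate histones at enhancers, did not pass the test. Crebbp was at 8.0 and 9.60 scaled RPKM in the libraries labelled Irf8 cKO, against 7.02 and 8.38 in Ctrl, a log2 ratio of 0.17 ± 0.15. Ep300 was at 6.19 and 7.84 in libraries labelled Irf8 cKO against 7.15 and 7.74 in Ctrl, a ratio of -0.08 ± 0.15 (SE; limma adjusted p = 0.701 and 0.868). Of the enzymes that remove acetyl groups, the class I deacetylase Hdac1 was at 14.8 and 9.47 scaled RPKM in libraries labelled Irf8 cKO against 14.7 and 13.4 in Ctrl, and Hdac2 at 6.13 and 2.76 in libraries labelled Irf8 cKO against 5.26 and 3.87 in Ctrl. In both genes the library labelled Irf8 cKO 2 was the lowest of the 4. Their log2 ratios were -0.22 ± 0.18 and -0.09 ± 0.18 (SE; limma adjusted p = 0.687 and 0.872), and without the library labelled Irf8 cKO 2 they turned to 0.077 and 0.37. Hdac3 and its corepressor Ncor1, partners in one complex, ran at 2.32 and 2.11 in libraries labelled Irf8 cKO against 2.17 and 1.68 in Ctrl, and at 9.21 and 10.6 scaled RPKM in libraries labelled Irf8 cKO against 7.81 and 8.68 in Ctrl. Ncor1 stood apart between groups and Hdac3 did not. Hdac7, a class IIa deacetylase, was at 4.43 and 5.57 in libraries labelled Irf8 cKO against 3.34 and 5.20 in Ctrl.

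Of the remodellers, Smarca4 (BRG1) was at 16 and 24.3 scaled RPKM in the libraries labelled Irf8 cKO, against 12 and 16.6 in Ctrl. The groups overlapped, while each experiment had the higher value in the library labelled Irf8 cKO, by log2 ratios of 0.39 and 0.52. The fitted ratio was 0.46 ± 0.17 (SE; limma adjusted p = 0.479). Without the block, it became 0.17 when the library labelled Irf8 cKO 2 was left out and 0.74 when that labelled Irf8 cKO 1 was. Arid1a, a DNA-binding subunit of the same BAF complex, was at 8.56 and 10.6 in libraries labelled Irf8 cKO against 9.33 and 8.58 in Ctrl, lower in experiment 1 and higher in experiment 2. Chd4, the ATPase of the NuRD deacetylase complex, was at 7.74 and 7.94 in libraries labelled Irf8 cKO against 6.68 and 7.95 in Ctrl.

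In the DNA methylation group, Dnmt1 was at 16.7 and 17.4 scaled RPKM in the libraries labelled Irf8 cKO, against 12.6 and 16 in Ctrl, with no overlap. Its log2 ratio was 0.25 ± 0.17 (SE; limma adjusted p = 0.632). Tet3 was at 2.62 and 3.45 in libraries labelled Irf8 cKO against 2.54 and 3.01 in Ctrl, a ratio of 0.09 ± 0.14 (SE; limma adjusted p = 0.842). Tet2 and the de novo methyltransferase Dnmt3a lay under the filter. Tet2 was at 0.966 and 1.16 scaled RPKM in libraries labelled Irf8 cKO against 0.478 and 0.713 in Ctrl, and Dnmt3a at 0.488 and 1.15 in libraries labelled Irf8 cKO against 0.431 and 0.438 in Ctrl. Without the filter their log2 ratios were 0.37 ± 0.17 and 0.32 ± 0.20 (SE; limma adjusted p = 0.685 and 0.732). All 4 genes under the filter had both libraries labelled Irf8 cKO above both Ctrl libraries on scaled values, against 20% of the 1372 genes under the filter between the lowest and highest mean level of the 4. Setd1b and Kdm6b also did so as deposited, against 6.56% of those genes.

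A ratio of paralogs within a library does not depend on how the library is scaled. The RPKM of Ezh2 was 12.7 and 7.89 times that of Ezh1 in the libraries labelled Irf8 cKO, against 14.2 and 15.1 times in Ctrl. That of Tet3 was 2.71 and 2.96 times that of Tet2 in the libraries labelled Irf8 cKO, against 5.32 and 4.22 times in Ctrl. The groups did not overlap in either pair. Crebbp over Ep300 was 1.29 and 1.22 in the libraries labelled Irf8 cKO, against 0.982 and 1.08 in Ctrl, also without overlap. For Hdac1 over Hdac2 the values were 2.42 and 3.44 in libraries labelled Irf8 cKO against 2.79 and 3.45 in Ctrl, for Ehmt1 over Ehmt2 0.926 and 1.42 in libraries labelled Irf8 cKO against 1.06 and 0.927 in Ctrl, and for Setd1a over Setd1b 7.11 and 4.56 in libraries labelled Irf8 cKO against 6.58 and 7.99 in Ctrl. These last 3 pairs overlapped. With 2 libraries against 2, an exact two-sided permutation test cannot go below p = 0.333, so no test is given. Full separation of the groups is the outcome at that floor, and no share over other pairs of genes was computed. The separations are therefore a description only.

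**Figure D3:**
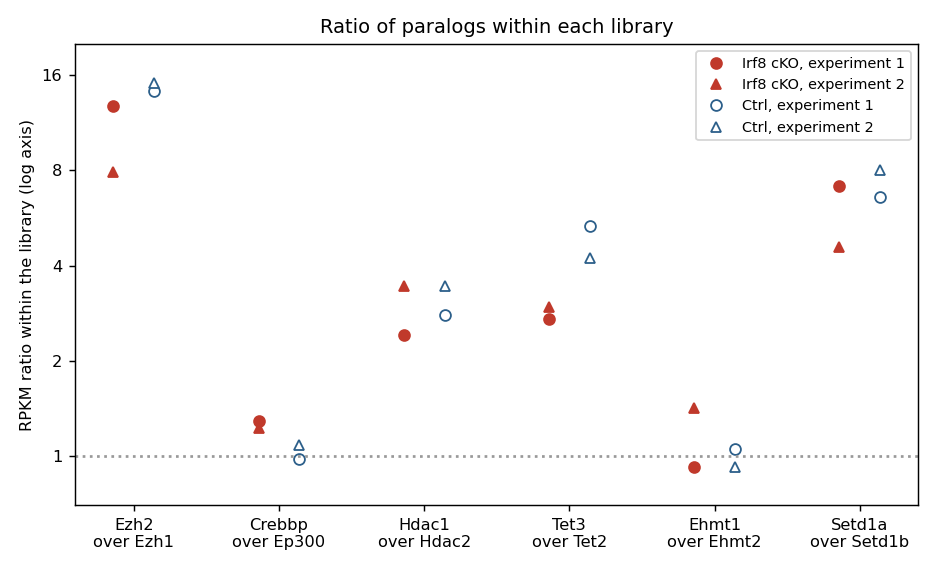
Ratio of deposited RPKM between paralogs within each library (log axis); filled red symbols are the libraries labelled Irf8 cKO, open blue symbols are Ctrl, circles and triangles mark experiments 1 and 2. Tet3 over Tet2 lies at 2.71 and 2.96 in red, below 5.32 and 4.22 in blue.

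Chromatin regulators are encoded by long transcripts, and length moved with the ratios. The 35 tested genes had a median transcript length of 6045 bases, against 2884 over all genes tested. With all genes in 5 bins of equal size by length, the median log2 ratio was -0.12 in the bin of the shortest transcripts and 0.03 in that of the longest (4798 bases or more). The longest bin held 22 of the 35 genes, Kmt2a and Ankrd11 among them, and the median of these 22 was 0.20. The medians of the shortest and longest bins were -0.21 and 0.04 in experiment 1, and -0.02 and 0.01 in experiment 2. With the trend on length removed from each library, the median of the 33 genes was 0.089, against -0.0023 over all genes, and 26 of the 33 ratios lay above 0. The ratio was then 0.47 for Kmt2a, whose transcript of 16461 bases is the longest of the list, 0.56 for Ankrd11, 0.52 for Setd1a, 0.38 for Ash1l and 0.44 for Smarca4.

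**Figure D4:**
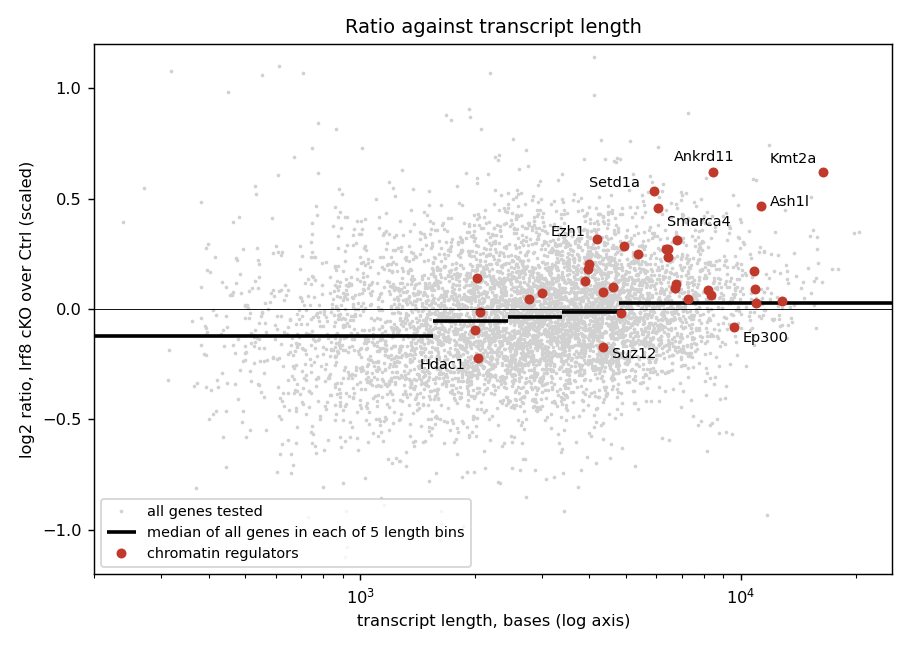
Log2 ratio of Irf8 cKO over Ctrl (scaled) against transcript length (log axis). Red points are the 35 chromatin regulators tested, grey points all genes tested with a known length (70 lie beyond the axes), and black bars the median over all genes in each of 5 length bins, which runs from -0.12 to 0.03.

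Tested on the RPKM as deposited, where all genes together stood lower, 0 of the 33 genes were called higher, against 0.0931% of all genes, and 0 lower, against 1.09%. At an unadjusted p under 0.05, 0 of the 33 were higher, against 0.264%, and 0 lower, against 18.6%. Both libraries labelled Irf8 cKO lay above both Ctrl libraries for 2 of the 33, Setd1a and Ezh1, against 1.19% of all genes, and below them for 11, against 44.7%. The log2 ratio was above 0 for 5 of the 33, against 7.63% of all genes, so that most of the genes with ratios above 0 after scaling were below 0 as deposited. Measured from the median of all genes, 24 of the 33 were above it, against 50% of all genes. The authors' deposited table, which compares 1 library with 1 library in each experiment, gives log2 ratios above 0 in both experiments for 18 of the 33 genes, against 24.3% of the genes tested here. For most genes that log2 ratio is the ratio of the same RPKM plus a constant, 0.205 and 0.721 in experiments 1 and 2. This count is therefore not separate from the count on scaled values. In the authors' deposited table, 1 of the 33 was higher at an unadjusted p under 0.05 in experiment 1 (Ash1l), against 1.78% of the genes tested here, and 1 in experiment 2 (Setd1a), against 1.66%. None of the 33 was lower at that level in either. The genes under the filter are not among the 33. Of these, all with low values, Kdm6b and Tet2 were higher at that level in experiment 1, and Setd1b and Dnmt3a in experiment 2. No share over genes of like level was computed for them. The authors' deposited log2 ratio was 0.542 and 0.760 for Kmt2a, 0.671 and 0.747 for Ankrd11, and 0.145 and -0.053 for Ezh2 in experiments 1 and 2.

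Other genes of the same complexes and enzyme families were taken from a list by role. Of 150 listed, 149 were matched and 125 passed the filter, with 0 called in either direction (limma, Benjamini-Hochberg) and, at an unadjusted p under 0.05, 11 higher and 4 lower, against 4.33% and 5.9% of all genes. Their median log2 ratio was 0.05, with 69 above 0 and 56 below, where 43.9% of all genes were above 0. By role, ratios above 0 were found for 6 of 7 demethylases, 3 of 4 DNA methylation genes, 4 of 6 genes of PRC2 and 6 of 10 of polycomb complex 1. They were found for 23 of 41 remodeller genes, 8 of 15 deacetylase and corepressor genes and 7 of 14 acetyltransferase and bromodomain genes. The counts were 7 of 14 for H3 lysine 4 genes and 2 of 8 for H3 lysine 9 and heterochromatin genes. The list for H3 lysine 36, H3 lysine 79 and H4 lysine 20, which also held Setd3 and Setd7, had 3 of 6. With the trend on length removed, 71 of the 125 lay above 0, against 3163 of 6383 over all genes. The count then fell to 2 of 7 demethylases and 2 of 4 DNA methylation genes. It rose to 27 of 41 remodeller genes, 9 of 15 deacetylase and corepressor genes and 8 of 14 H3 lysine 4 genes. It also rose to 4 of 6 in the list that held Setd3 and Setd7, and was unchanged in the other roles. The largest ratio was that of Chd3, the paralog of Chd4 in NuRD, at 1.64 and 2.11 scaled RPKM in the libraries labelled Irf8 cKO, against 0.350 and 0.776 in Ctrl. The groups did not overlap. The log2 ratio was 0.89 ± 0.14 (SE; limma adjusted p = 0.265), and scaling to equal sums without Rn45s brought it past the threshold (limma adjusted p = 0.000472). Bcl7a, a BAF subunit, was at 5.03 and 8.44 scaled RPKM in libraries labelled Irf8 cKO against 3.92 and 3.49 in Ctrl, a ratio of 0.68 ± 0.21 (SE; limma adjusted p = 0.468, and 0.0193 at equal sums). Hdac4, a class IIa deacetylase, was at 1.40 and 2.52 in libraries labelled Irf8 cKO against 0.832 and 1.03 in Ctrl, and Sirt2, an NAD-dependent deacetylase, at 1.46 and 1.77 in libraries labelled Irf8 cKO against 2.29 and 3.24 in Ctrl. Their log2 ratios were 0.59 and -0.52 (limma adjusted p = 0.449 for both).

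The remaining genes that the naming rule picked from these role lists had smaller ratios, and none passed (limma adjusted p from 0.469 to 0.80). In H3 lysine 4 complexes, log2 ratios were 0.35 for Paxip1 and -0.43 for Dpy30, a small core subunit with a transcript of 710 bases. Beside PRC2, the accessory subunits Phf19 and Mtf2 were at 0.32 and 0.28. In polycomb complex 1, Cbx7, a reader of the PRC2 mark, was at 0.37 and Yaf2 at -0.41. Among H3 lysine 9 genes, Atf7ip, a partner of SETDB1, was at 0.19 and Suv39h2 at -0.12. Setd7 and Nsd3 (Whsc1l1 in the tables) were at 0.20 and 0.15, and the demethylases Phf2 and Kdm4c at 0.29 and 0.25. The bromodomain genes Brd8 and Brd1 were at 0.47 and 0.32. In DNA methylation, Mbd1, a methyl-CpG binding protein, was at 0.37 and Uhrf1, the partner of DNMT1 at replication forks, at 0.12.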

How the data were processed

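RNA of sorted germinal centre B cells was amplified (Ovation RNA-Seq System v2) and made into libraries with Nextera XT, per the labels' protocols. The authors deposited an RPKM per RefSeq gene and library, 1 table per experiment, computed with Wardrobe, which the series design text names. Which aligner was used is not given in the sources. TopHat2 2.0, Cufflinks 2.2, Cuffdiff, DESeq, mm9 and mm10 stand in the submitters' processing notes, with no role. Gene coordinates match mm10. Each table also has, per the file headers, a log2 ratio and an unadjusted p-value of the authors, from 1 library against 1. Checked on the values, the deposited log2 ratio is the log2 RPKM ratio plus a constant, 0.205 and 0.721 in experiments 1 and 2, within 0.05 for 97.1% and 96.2% of genes with both libraries at RPKM 1 or above.

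Entries that share a symbol (2 symbols) were summed. RPKM were divided by median-of-ratios factors over the 11717 genes above 0 in all 4 libraries and tested as log2(scaled RPKM + 1), a scale on which changes of weakly expressed genes come out too small. Genes at a deposited RPKM of at least 1 in 2 libraries entered limma 3.58.1 (R 4.3.3; lmFit, eBayes with a variance trend, 2-sided), with the experiment as a block (residual degrees of freedom 1, prior 4.90), and p-values were adjusted over all 6446 genes. As deposited, without scaling, the prior degrees of freedom were infinite, so a gene's own spread had no weight there. The block follows the labels, which number the experiments. Deviations of same-numbered libraries from their group means correlated at 0.336. Transcript lengths came from GENCODE transcripts of GRCm38 matched by RefSeq accession (97.6% of genes). Read totals rest on those lengths: 72.3% to 75.7% of low values are whole at a tolerance of 0.1 reads, too few for a count model. The fit was run on simulated data with shifts larger than any ratio of the list, which says nothing of its power at the sizes reported here. Alternatives were the scaling, pseudocount (0.1), low-value filter, block, each library left out, and lowess removal (span 0.3) of trends on length and GC content. Fits with a library left out had no block, so they ignore the pairing by experiment. One marker gene is not reported here. Figures used matplotlib 3.10.9. Members, role lists and tests were chosen with earlier results of these data known. Named with values were all members, by role, and in each role list the 2 genes with the largest ratio of the same sign in both experiments.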

Additional observations from a re-analysis of the deposited data

How the results depend on the processing

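Of the chromatin regulators, 0 were called higher and 0 lower under each alternative run, while counts over all genes moved from 0 higher and 0 lower to 6 and 70 as deposited, 45 and 42 after scaling to equal sums without Rn45s, 1 and 3 with factors over the tested genes only (chosen after seeing the data), and 1 and 2 without the replicate block. Leaving out each library gave 3 to 59 higher and 7 to 57 lower, and pseudocount, filters, length and GC removal 0 and 0. At an unadjusted p under 0.05 limma gave 279 higher and 380 lower genes. The median of the 35 members tested, Kmt2a and Ankrd11 included, stood 0.15 above that of all genes. This difference was 0.10 with the length trend removed, 0.064 to 0.30 with a library left out, 0.12 to 0.19 otherwise, and 0.15 without the replicate block. For the 33 genes not chosen on the contrast the median ratio was 0.10, against -0.04 over all genes. With the length trend removed it was 0.089, against -0.0023. Of the related genes, 2 were called higher at equal sums (Chd3 at 0.92 and Bcl7a at 0.75, adjusted p = 0.000472 and 0.0193) and 0 to 2 with a library left out (Chd3 at 1.01 and Hdac4 at 0.87 without the library labelled Irf8 cKO 1, adjusted p = 0.00253 and 0.0271, where the lone library of its group is assumed to vary like the Ctrl pair). The replicate block changed no call of a member or related gene. Measured from the median of all genes as deposited, 5 members changed sign (Ezh2 to -0.032, Setd2 to -0.0096, Nsd1 to -0.02, Kdm2a to -0.011 and Kdm3a to 0.059), as did Suv39h2 (to 0.021). With libraries left out, the fits had no block and set a lone library against both of the other group, so the pairing by experiment was lost. The ratio then crossed 0 for 20 of the 35 members and kept its sign for 15, with no share over all genes computed. The 20 include Suz12 (-0.57 to 0.23), Hdac7 (-0.054 to 0.46), Ezh2 (-0.028 to 0.12), Ehmt2 (-0.16 to 0.41), Kdm3b (-0.027 to 0.57), Ep300 (-0.23 to 0.068), Hdac1 (-0.52 to 0.077), Hdac2 (-0.56 to 0.37), Tet3 (-0.058 to 0.24), and Eed, Setdb1, Setd2, Nsd1, Setd5, Kdm1a, Kdm2a, Kdm2b, Kdm5a, Arid1a and Chd4. Within the experiments, Setdb1, Setd2, Setd5, Kdm3b, Hdac7 and Tet3 of these 20 were above 0 in both. The others of the 20 differed in sign between experiments. Among related genes Nsd3 crossed 0 (-0.058 to 0.36), while its ratio was above 0 in both experiments. The cause was not tested.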
